A study of Mus musculus with 18 samples.

Results

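The genes described here are lipocalin 2 (Lcn2) and 7 genes of acute phase proteins. Those 7 are serum amyloid A (Saa1, Saa2 and Saa3), haptoglobin (Hp), orosomucoid 1 (Orm1), inter-alpha-trypsin inhibitor heavy chain 4 (Itih4) and ceruloplasmin (Cp). These 8 are among the 55487 genes counted in each library. They were chosen by name, with the differences between the genotypes already known, so those differences are given with their standard errors as a description and without a test. RNA was sequenced from 18 libraries, each from 1 male mouse on chow that was fasted for 4 h. Csn8AKO mice are Csn8 f/f mice that carry Cre under the adiponectin promoter, which deletes Csn8, a subunit of the COP9 signalosome, in the adipocytes of every depot, and Ctrl mice are Csn8 f/f littermates without Cre, labelled WT. Subcutaneous white adipose tissue (sWAT, labelled SF) was taken at 12 weeks from 4 Ctrl and 4 Csn8AKO mice, and brown adipose tissue (BAT) at 4 weeks from 5 Ctrl and 5 Csn8AKO mice. Both genotypes carry the floxed allele, and since the 2 depots were taken at different ages, tissue and age cannot be told apart.

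In the acute phase response, cytokines of the IL-6, IL-1 and TNF families raise the secretion of a set of plasma proteins through STAT3, NF-kappaB and C/EBP factors. The liver is the best known source of these proteins, and adipocytes and macrophages make several of them. LCN2 binds bacterial siderophores and so withholds iron. SAA proteins associate with HDL, and SAA3 is the form made outside the liver. Haptoglobin binds free haemoglobin, orosomucoid is a carrier protein that modulates immune cells, ITIH4 belongs to a family of which several members bind hyaluronan, and ceruloplasmin is a copper ferroxidase that helps iron leave cells.

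The sequence just before the start site is shown for the 3 genes whose levels differed most between the genotypes, Lcn2 and Saa3 in sWAT and Itih4 in BAT, because the factors of the acute phase response act on such sequence. The stretches come from RefSeq (GRCm38.p6) and run 5′ to 3′ on the gene's own strand. Capitals mark the single match found in each. The Lcn2 stretch is chr2:32387798-32387989 on the minus strand, without the last 58 bases before the start, which are annotated as UTR, and part of it lies in an exon of a longer annotated Lcn2 transcript. The Saa3 stretch is chr7:46715701-46715926 on the minus strand, with 24 bases left out for the same reason, and the Itih4 stretch is chr14:30886226-30886475 on the plus strand.
Lcn2: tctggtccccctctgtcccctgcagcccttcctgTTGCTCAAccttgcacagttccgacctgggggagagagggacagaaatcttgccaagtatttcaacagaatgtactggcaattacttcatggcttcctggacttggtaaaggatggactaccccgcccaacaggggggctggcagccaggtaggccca
Saa3: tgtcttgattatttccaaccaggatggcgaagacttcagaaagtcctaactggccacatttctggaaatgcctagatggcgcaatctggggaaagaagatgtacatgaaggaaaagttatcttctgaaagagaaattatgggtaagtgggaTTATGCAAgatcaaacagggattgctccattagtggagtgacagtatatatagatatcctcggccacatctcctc
Itih4: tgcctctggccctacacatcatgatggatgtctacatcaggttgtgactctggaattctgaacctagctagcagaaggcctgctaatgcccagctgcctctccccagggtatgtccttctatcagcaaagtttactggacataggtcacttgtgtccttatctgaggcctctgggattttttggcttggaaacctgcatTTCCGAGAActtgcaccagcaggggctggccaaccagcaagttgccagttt

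On both strands of the 250 bases before the start, 3 motifs were searched, the C/EBP letters TTNNGCAA, the STAT letters TTCNNNGAA and the NF-kappaB consensus of 10 letters. RefSeq windows were at hand for 6 of the 8 genes, Lcn2, Saa1, Saa2, Saa3, Itih4 and Cp. The C/EBP letters lay 216 to 209 bases before the Lcn2 start and 99 to 92 bases before the Saa3 start, the match marked in capitals in each. They were also found 182 to 175 bases before Saa1, 183 to 176 bases before Saa2, and 70 to 63 bases before the start of 1 of the 2 Cp windows. Of all 32851 promoter windows of this length, 9.56% held this motif. The STAT letters were found in Itih4 alone among the 6 genes, 51 to 43 bases before the start, and in 7.02% of all windows. No NF-kappaB match lay in the windows of the 6 genes, against 7.25% of all windows, and none of the windows of these genes held matches to more than 1 of the motifs. These matches are letters in a window and carry no measurement of binding. The upstream stretches of Saa1 and Saa2 were 79.1% identical over 249 aligned bases, while Saa3 was 32.2% identical to Saa1 and 32.8% identical to Saa2.

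Levels are given as CPM, a gene's counts relative to all counts of its library, scaled across the 18 libraries with TMM factors. The gene counts summed to 15835721 to 23109603 per sWAT library and 26658593 to 66719937 per BAT library, and ribosomal RNA genes took 1.80% to 47.8% of the sWAT counts and 0.863% to 15.1% of the BAT counts. Ctrl replicate 1 and Csn8AKO replicate 2 of sWAT stood apart in B and T cell markers, with summed levels of 145.6 and 301 CPM against at most 16.2 CPM in every other library. The targeted gene, listed as Cops8, was at 31.9 to 35.7 CPM in Ctrl sWAT and 27.0 to 34.9 CPM in Csn8AKO sWAT, a log2 difference of −0.12 ± 0.11 (SE; edgeR adjusted p = 0.623). In BAT it fell from 38.1–46.0 to 28.4–37.4 CPM, by 0.30 ± 0.09 on the log2 scale (edgeR adjusted p = 0.0211). These are counts over the whole gene in whole tissue, which do not separate the deleted exons or the adipocytes from other cells, and in such bulk samples fewer cells of a type cannot be told apart from less RNA per cell.

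In sWAT, Lcn2 (ENSMUSG00000026822, chr2:32384633-32388252, minus strand, GRCm38) was close to undetected in Ctrl mice and readily detected in Csn8AKO mice. The 4 Ctrl libraries held 37, 14, 10 and 8 Lcn2 counts, which is 1.57, 0.701, 0.573 and 0.406 CPM. The 4 Csn8AKO libraries held 6530, 7052, 8266 and 9682 counts, or 296.7, 295.4, 554.2 and 700.4 CPM. Every Csn8AKO library lay far above every Ctrl library, and the log2 difference was 9.10 ± 0.55 (SE, n = 4 and 4), or 548.5-fold. The size of this ratio rests on the few Ctrl counts. It was 9.69 on the log2 scale without Ctrl replicate 1, which held the most Ctrl counts, and 8.82 to 9.27 without any other single library. Without the 2 libraries high in B and T cell markers, a choice made after seeing the data, it was 9.84. The Csn8AKO libraries with more Lcn2 were also those with more ribosomal RNA, whose share was 3.96%, 4.83%, 31.8% and 47.8% in the same order as the CPM values, and the log2 difference was 9.13 when ribosomal RNA genes were left out.

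Among the serum amyloid A genes, which lie close together on chromosome 7, Saa3 alone was measured at more than a few counts in sWAT. Saa3 (ENSMUSG00000040026, chr7:46711998-46715700, minus strand) stood at 0.553, 0.701, 1.26 and 0.406 CPM in the Ctrl libraries, from 8 to 22 counts each. In the Csn8AKO libraries it stood at 17.5, 6.79, 16.3 and 12.4 CPM, from 162 to 385 counts each. The groups did not overlap, and the log2 difference was 4.19 ± 0.41 (SE), or 18.2-fold. Saa3 and Lcn2 did not order the 4 Csn8AKO libraries alike, since replicate 1 was highest for Saa3 and replicate 4 for Lcn2. Saa1 (ENSMUSG00000074115, chr7:46740497-46742980) and Saa2 (ENSMUSG00000057465, chr7:46751790-46754313) had 0 to 6 counts in every sWAT library and did not pass the filter on low counts, so a difference was not detectable at this depth. Saa1 had 0, 6, 0 and 0 counts in Ctrl and 2, 4, 6 and 2 in Csn8AKO sWAT. Of the 150-base stretches in their transcripts, Saa1 and Saa2 shared 2.11% and 2.03%, while no other pair of the 8 genes shared any. Per the study's methods, reads that match both genes alike were not counted.

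**Figure D1:**
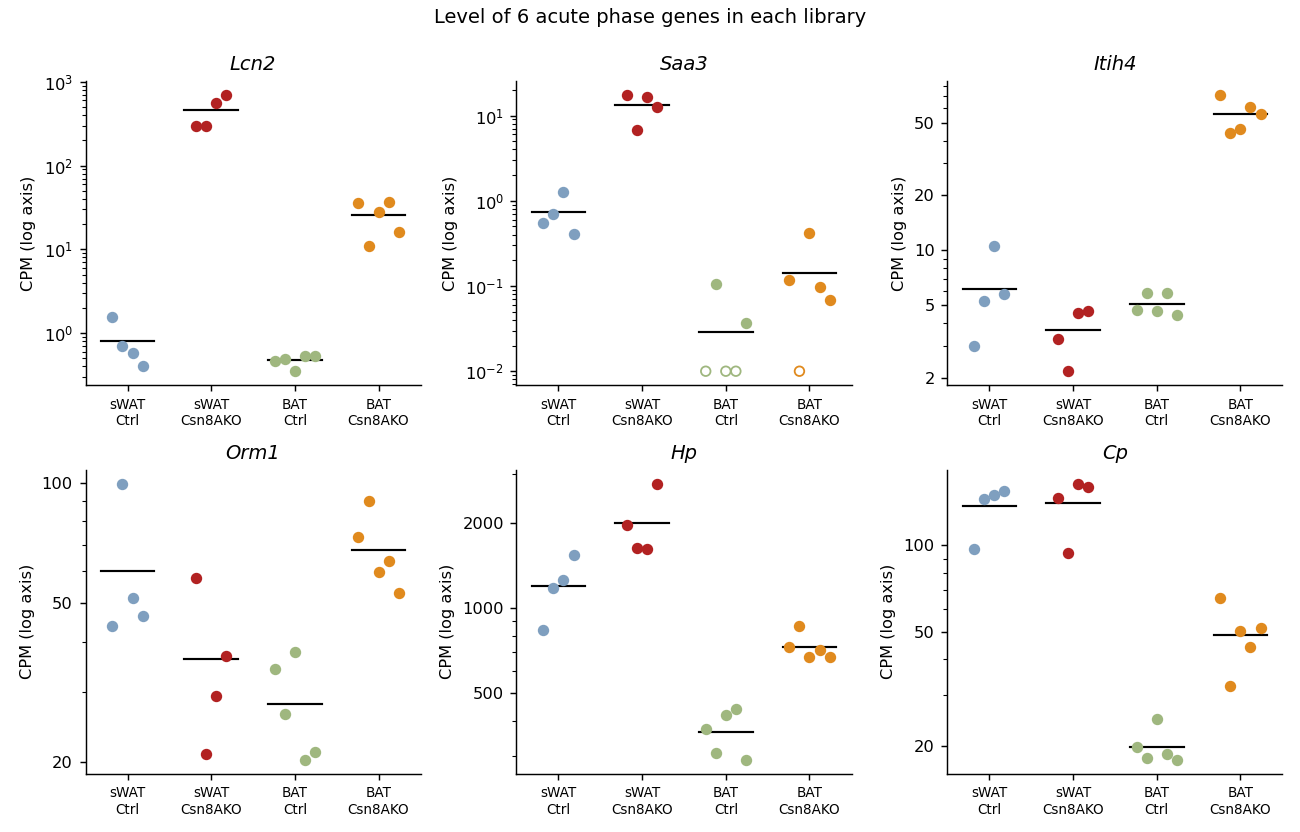
Level in CPM (log axis) of Lcn2, Saa3, Itih4, Orm1, Hp and Cp in each library (points) with the group mean (line), for Ctrl and Csn8AKO mice in sWAT and BAT; open circles are libraries with 0 counts, drawn at the foot of the Saa3 panel. Lcn2 was separated between the genotypes in both tissues, while Itih4 and Cp were separated in BAT and overlapped in sWAT.

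Hp was by far the most abundant of the 8 genes and was moderately higher in Csn8AKO sWAT. Hp (ENSMUSG00000031722, chr8:109575128-109579172, minus strand) stood at 835.8, 1178, 1259 and 1547 CPM in the Ctrl libraries. In Csn8AKO sWAT it stood at 1979, 1636, 1620 and 2771 CPM. The groups did not overlap, as for Lcn2 and Saa3, with a log2 difference of 0.74 ± 0.25 (SE), or 1.67-fold. Of all genes tested in sWAT, 5.64% did not overlap on the higher side and 7.98% on the lower side.

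The other 3 genes were not separated in sWAT. Orm1 (ENSMUSG00000039196, chr4:63344560-63348163, plus strand) was at 43.9, 99.5, 51.4 and 46.5 CPM in Ctrl and 57.9, 20.9, 29.2 and 36.8 CPM in Csn8AKO sWAT, a log2 difference of −0.73 ± 0.34. Itih4 (ENSMUSG00000021922, chr14:30886476-30902353, plus strand) was at 2.98, 5.26, 10.6 and 5.78 CPM in Ctrl and 3.27, 2.18, 4.56 and 4.63 CPM in Csn8AKO sWAT, a difference of −0.75 ± 0.38. Both leaned on a single high Ctrl library, since the difference was −0.40 for Orm1 without Ctrl replicate 2 and −0.36 for Itih4 without Ctrl replicate 3. Cp (ENSMUSG00000003617, chr3:19957054-20009145, plus strand) was at 96.9, 144.8, 150.2 and 155.4 CPM in Ctrl and 146.9, 93.9, 164.5 and 159.5 CPM in Csn8AKO sWAT, with a log2 difference of 0.05 ± 0.20, and its sign turned to −0.08 when libraries were scaled by size alone. Of the 9566 exon bases of Cp, 108 (1.13%) overlap Hps3 on the opposite strand, and reads there that fit both genes would not be counted. Of the 8 genes, 6 passed the filter in sWAT, and 2 of them, Lcn2 and Saa3, had an adjusted p under 0.05 on the higher side, where 2.30% of all 18843 genes tested did and 5.31% did on either side; since this contrast was known when the genes were chosen, nothing is read from that count. Over all genes, edgeR called 434 higher and 566 lower, and 106 and 328 when libraries were scaled by size alone.

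In BAT the pattern was different, in that Itih4, Orm1 and Cp were higher in Csn8AKO mice together with Lcn2 and Hp. Lcn2 was at 0.459, 0.491, 0.351, 0.534 and 0.540 CPM in the 5 Ctrl libraries, from 17 to 29 counts each. It was at 36.1, 11.0, 27.6, 36.9 and 16.3 CPM in the 5 Csn8AKO libraries, from 271 to 2630 counts each. The groups were far apart, with a log2 difference of 5.78 ± 0.39 (SE, n = 5 and 5), or 54.8-fold, with the lowest Csn8AKO library still well above the highest Ctrl library.

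Itih4 had the second largest difference in BAT. Its Ctrl levels were within a narrow range, 4.69, 5.84, 4.64, 5.83 and 4.43 CPM, and its Csn8AKO levels were 71.2, 44.0, 46.4, 61.3 and 56.1 CPM. The difference was 3.48 ± 0.15 on the log2 scale, or 11.1-fold. Itih4 and Lcn2 ordered the Csn8AKO libraries in part alike, with replicates 1 and 4 highest and replicate 2 lowest for both.

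Cp in BAT was at 19.8, 18.1, 24.7, 18.7 and 17.8 CPM in Ctrl and 65.3, 32.4, 50.2, 44.3 and 51.6 CPM in Csn8AKO mice, a log2 difference of 1.32 ± 0.16 or 2.50-fold. For Orm1 the levels were 34.3, 26.4, 37.8, 20.3 and 21.2 CPM in Ctrl and 73.1, 90.2, 59.8, 63.7 and 52.9 CPM in Csn8AKO mice, a difference of 1.30 ± 0.19 or 2.46-fold. Hp, at the highest level of the 5, was at 372.4, 306.8, 419.3, 440.1 and 290.4 CPM in Ctrl and 727.3, 868.4, 673.5, 715 and 671.6 CPM in Csn8AKO mice, a difference of 1.02 ± 0.13 or 2.03-fold. None of the 5 genes overlapped between the genotypes, as was so on the higher side for 9.50% and on the lower side for 11.6% of all genes tested in BAT. The serum amyloid A genes were at the edge of detection in BAT. Saa3 had 0, 6, 0, 0 and 2 counts in Ctrl and 7, 0, 12, 7 and 2 in Csn8AKO BAT, Saa1 had at most 6 counts in a library, and Saa2 had 4 to 13 counts in Ctrl and 2 to 10 in Csn8AKO BAT. These 3 did not pass the filter, and a difference in them was not detectable at this depth. The 5 genes that passed it all had an adjusted p under 0.05 on the higher side, as did 16.0% of all 22345 genes tested, with 31.9% on either side; this contrast, too, was known when the genes were chosen. Over all genes, 3585 were called higher and 3536 lower, and 4183 and 2087 when libraries were scaled by size alone.

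**Figure D2:**
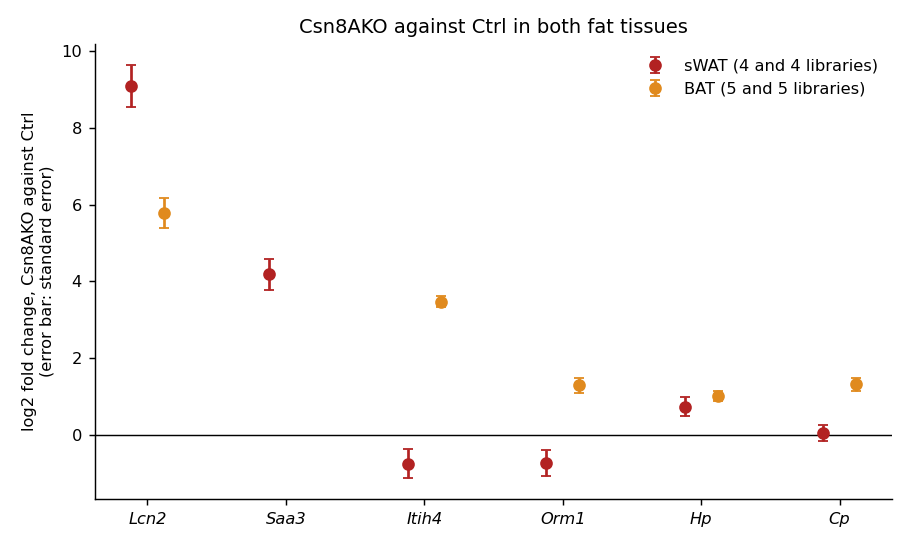
Log2 fold change of Csn8AKO against Ctrl with its standard error, in sWAT and in BAT, for the 6 genes that passed the filter on low counts in at least 1 tissue; Saa3 has no BAT value. Lcn2 stood at 9.10 in sWAT and 5.78 in BAT, and Itih4 at −0.75 in sWAT and 3.48 in BAT.

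Set side by side, the log2 differences between the genotypes in sWAT and BAT were 9.10 and 5.78 for Lcn2, 0.74 and 1.02 for Hp, 0.05 and 1.32 for Cp, −0.73 and 1.30 for Orm1, and −0.75 and 3.48 for Itih4. The BAT value minus the sWAT value was −3.35 ± 0.63 for Lcn2, 0.27 ± 0.27 for Hp, 1.25 ± 0.27 for Cp, 2.01 ± 0.42 for Orm1 and 4.22 ± 0.40 for Itih4 (SE). Hp was thus the gene whose 2 differences lay closest, within the error of their gap. Tissue comes with age in this gap, and no p is given because both contrasts were known. Of all 22509 genes tested for such a gap with edgeR, 2.36% were called.

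Ctrl sWAT against Ctrl BAT was not the comparison by which these genes were chosen. The same Ctrl libraries are part of both known contrasts, however, so it is not fully independent of that choice. It was tested with edgeR's quasi-likelihood test and Benjamini-Hochberg adjustment over 22381 genes. Of the 5 genes with more than a few counts in both tissues, Cp, Hp and Orm1 were higher in sWAT at 12 weeks than in BAT at 4 weeks, and Lcn2 and Itih4 did not pass, where 27.0% of all genes tested were higher and 25.7% lower, together 52.7%. Over all genes, 6039 were called higher and 5748 lower, and 6719 and 3781 when libraries were scaled by size alone. Cp was 7.14-fold higher in sWAT (2.84 ± 0.15 on the log2 scale, adjusted p = 7.45e-09). Hp was 3.41-fold higher (1.77 ± 0.18, adjusted p = 3.48e-06) and Orm1 2.23-fold higher (1.16 ± 0.29, adjusted p = 0.00771). Saa3 passed the filter on low counts through sWAT alone, so its counts are given without a test, 13, 14, 22 and 8 in Ctrl sWAT and 0, 6, 0, 0 and 2 in Ctrl BAT, and Saa1 and Saa2 did not pass it. Lcn2 and Itih4 showed differences of 0.85 ± 0.39 (adjusted p = 0.0852) and 0.32 ± 0.28 (adjusted p = 0.373). The Lcn2 difference was 1.06 and passed without sWAT Ctrl replicate 4 (adjusted p = 0.0364), and 0.27 without sWAT Ctrl replicate 1 (adjusted p = 0.568).

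Divided by gene length, the levels of different genes can be roughly compared. This length covers all annotated exons of a gene and is not that of a single transcript. In Ctrl sWAT, in CPM per kb, Hp was at 750.4 (520.4 to 963.3), Orm1 at 77.8 (56.7 to 128.3), Cp at 14.3 (10.1 to 16.3), Itih4 at 1.67 (0.806 to 2.87), Lcn2 at 0.310 (0.155 to 0.600) and Saa3 at 0.280 (0.156 to 0.484). Each of these lay apart from its neighbour except Lcn2 and Saa3. In Csn8AKO sWAT, Lcn2 was second only to Hp, at 176 (112.6 to 267) against 1246 (1008 to 1725), and it lay above Orm1 at 46.8 (27.0 to 74.8) and Cp at 14.8 (9.81 to 17.2) without overlap. In Ctrl BAT the order was Hp at 227.8, Orm1 at 36.1, Cp at 2.07, Itih4 at 1.38 and Lcn2 at 0.181, with Saa2 at 0.0738 overlapping Lcn2. In Csn8AKO BAT, Itih4 at 15.1 (11.9 to 19.3) was above Cp at 5.10 (3.38 to 6.83) without overlap, the reverse of their order in Ctrl BAT, and Lcn2 at 9.75 (4.2 to 14.1) overlapped both. The gap between Itih4 and Cp rests on the lengths used, 3690 and 9566 bases. Before the division they overlapped, at 44.0 to 71.2 and 32.4 to 65.3 CPM.

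**Figure D3:**
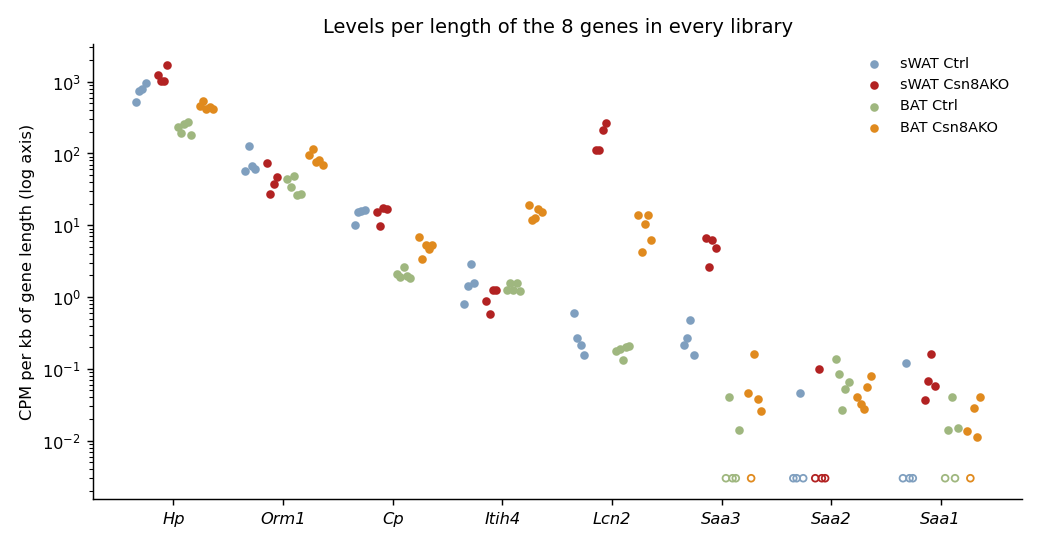
Level per gene length (CPM per kb of annotated exons, log axis) of the 8 genes in each library of the 4 groups; open circles are libraries with 0 counts. Hp was the highest in every group, and Lcn2 was second in Csn8AKO sWAT, at 112.6 to 267 CPM per kb.

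The gene lists that follow were also chosen with earlier results of these data known. Their counts, medians and p-values describe them and are not independent support. Of 36 other positive acute phase genes, 30 were tested in sWAT, where 2 rose and 1 fell with a median log2 change of 0.23. In BAT 21 were tested, where 9 rose and 0 fell with a median of 1.01. The medians over all genes were 0.03 and 0.01. At an unadjusted p under 0.05, 10 of the 30 and 14 of the 21 passed, in either direction, and DESeq2 called 6 and 11. The background is 2.30% higher and 3.00% lower calls in sWAT, and 16.0% and 15.8% in BAT. In sWAT, Il1rn, the IL-1 receptor antagonist, rose from 0.909 to 7.19 CPM (2.99 ± 0.35 on the log2 scale, adjusted p = 0.00242), and Timp1, a metalloproteinase inhibitor, rose by 2.22 ± 0.55 (adjusted p = 0.0462). Steap4, a metalloreductase of adipocytes, fell by 0.79 ± 0.20 on the log2 scale (adjusted p = 0.0467). The Timp1 call was lost without any single library other than Csn8AKO replicate 4, and the Steap4 call without any but Csn8AKO replicates 2 and 4.

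In BAT, Orm2, a close relative of Orm1, rose from 1.04 to 10.0 CPM (3.28 ± 0.26, adjusted p = 1.27e-06). The complement genes C4b and C3 rose by 2.19 ± 0.26 (adjusted p = 1.48e-04) and 1.55 ± 0.16 (adjusted p = 1.06e-05). Timp1 rose by 2.18 ± 0.35 (adjusted p = 3.36e-04), and Lbp, which presents bacterial lipopolysaccharide, rose by 1.57 ± 0.19 (adjusted p = 3.63e-05). The other 4 that rose were Hpx, which binds haem, and the complement genes C1ra, Serping1 and C1s1. In sWAT, the changes of Orm2, C4b, Lbp and C3 were 0.59, −0.38, 0.28 and 0.84 on the log2 scale and did not pass (adjusted p = 0.50, 0.432, 0.566 and 0.109).

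**Figure D4:**
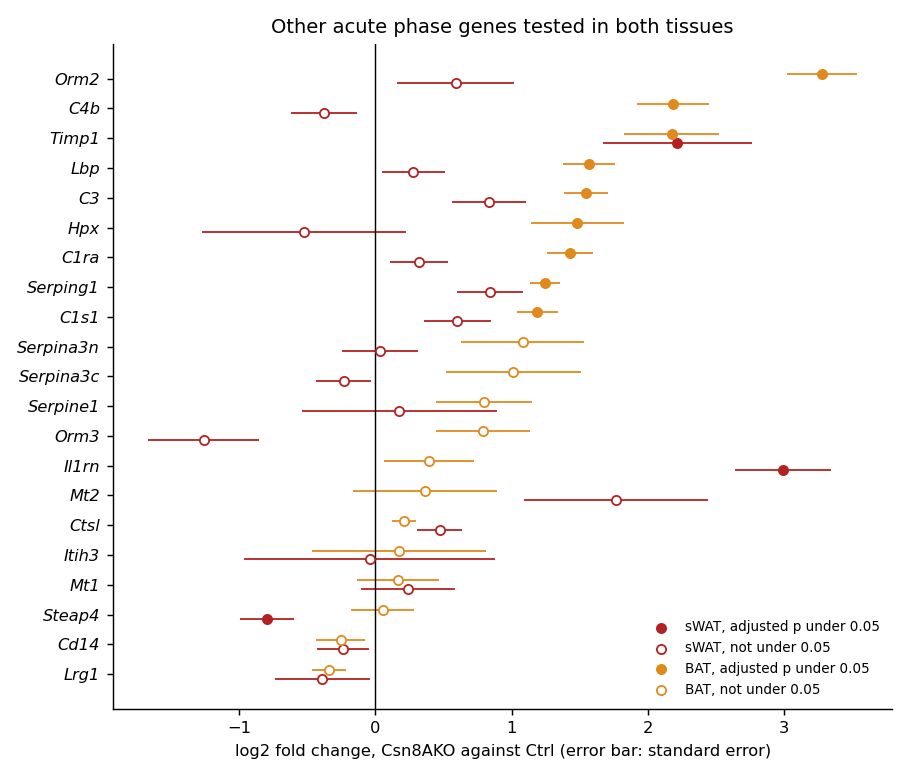
Log2 fold change of Csn8AKO against Ctrl for the 21 other positive acute phase genes tested in both tissues, with filled points for an edgeR adjusted p under 0.05. In BAT 9 of them passed, all on the higher side, and Orm2 was the highest at 3.28.

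Negative acute phase genes, whose plasma proteins fall in inflammation, were few in fat. Of 9, 6 were tested in sWAT, all with a log2 change under 0 and a median of −0.997, and 1 of them fell, Rbp4, the retinol carrier, by 1.23 ± 0.28 (adjusted p = 0.0350). That call was lost without Ctrl replicate 1, 2, 3 or 4 or Csn8AKO replicate 3 or 4. In BAT 2 were tested, and Trf, transferrin, rose from 27.9 to 149.1 CPM (2.45 ± 0.32, adjusted p = 3.28e-04), where in sWAT it was at 1753 and 1198 CPM (adjusted p = 0.256). Of the genes tested in sWAT, Alb, Ttr, Ahsg and Apoa1 are also hepatocyte markers. Their standard errors there were 0.99 to 1.61 and none passed (edgeR adjusted p = 0.547 to 0.949). The shared direction and the median in sWAT thus rest largely on imprecise values.

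The relatives of the 8 genes by sequence or family were 9 in number, of which 1 fell of 6 tested in sWAT and 2 rose of 7 tested in BAT. Of all genes tested, 5.31% were called in sWAT and 31.9% in BAT, so the share in BAT was close to that of all genes. Orm3 was at 2.76 and 1.12 CPM in Ctrl and Csn8AKO sWAT and at 4.68 and 8.01 CPM in BAT, and neither difference passed (adjusted p = 0.109 in each tissue), although DESeq2 called both. Itih2 rose in BAT by 0.92 ± 0.32 (adjusted p = 0.0407), a call lost without Ctrl replicate 3, 4 or 5 or Csn8AKO replicate 3, 4 or 5. Itih3 and Itih5 did not pass in either tissue, and Itih1 and Saa4 were not tested. Heph, a ferroxidase related to Cp, fell in sWAT from 112.4 to 50.7 CPM (by 1.14 ± 0.20 on the log2 scale, adjusted p = 0.0126, or 0.0576 without Csn8AKO replicate 3), and in BAT its change was −0.26 (adjusted p = 0.284). Ptgds, the lipocalin-type prostaglandin D synthase, was at 16.0 and 5.90 CPM in BAT (−1.42, adjusted p = 0.0825), a difference that DESeq2 called.

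The cytokines that induce acute phase genes were mostly at low levels, and of 16 listed, 1 rose and 1 fell of 6 tested in sWAT and 3 rose and 1 fell of 8 tested in BAT. The share of all genes called in either direction was 5.31% in sWAT and 31.9% in BAT. Il6 had 0 to 8 counts in every library and was not tested. Il1b was at 0.336 and 1.61 CPM in Ctrl and Csn8AKO sWAT, under the filter, and did not pass in BAT (0.30, adjusted p = 0.696). Tnf did not pass in sWAT (0.99, adjusted p = 0.515) or BAT (0.19, adjusted p = 0.729). On the higher side, 3 inducers passed in BAT. Lif, an IL-6 family cytokine, rose from 0.0461 to 0.510 CPM in BAT (3.41 ± 0.45, adjusted p = 6.66e-05) and was at 4.01 and 5.34 CPM in sWAT (adjusted p = 0.370). Il33 rose in both tissues, by 1.60 ± 0.30 in sWAT (adjusted p = 0.0160) and 1.14 ± 0.23 in BAT (adjusted p = 0.00190), and the sWAT call was lost without Ctrl replicate 3 or 4 or Csn8AKO replicate 1 or 3. Clcf1 rose in BAT by 0.76 (adjusted p = 0.0253), a call lost without Ctrl replicate 3 or 4 or Csn8AKO replicate 1, 3, 4 or 5. Ctf1, another IL-6 family cytokine, fell in both tissues, by 2.80 ± 0.40 in sWAT (adjusted p = 0.00562) and 1.71 ± 0.17 in BAT (adjusted p = 8.62e-06).

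Of the 14 cytokine receptor genes, 2 rose of 14 tested in sWAT and 3 rose and 1 fell of 13 in BAT, a share in BAT close to the 31.9% of all genes that were called there. Tnfrsf1b, a TNF receptor, rose in both, by 0.67 in sWAT (adjusted p = 0.0364) and 1.26 in BAT (adjusted p = 1.20e-05). Ifngr2 rose in sWAT by 0.50 (adjusted p = 0.0369). Both sWAT calls were fragile, lost without Ctrl replicate 2, 3 or 4 or Csn8AKO replicate 1 or 3, and for Ifngr2 also without Ctrl replicate 1 or Csn8AKO replicate 4. In BAT, Il17ra rose by 1.13 (adjusted p = 2.15e-05) and Il1r1 by 1.02 (adjusted p = 7.10e-04), and Lifr fell by 0.35 (adjusted p = 0.0336), which did not hold without Ctrl replicate 3 or 4 or Csn8AKO replicate 3, 4 or 5.

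Of 25 signaling and transcription factor genes of the response, 23 were tested in sWAT and edgeR called 0, with 2 at an unadjusted p under 0.05 and 1, Cebpa, called by DESeq2. Stat3 differed by 0.15 (adjusted p = 0.629), Socs3, a target and inhibitor of STAT3, by 0.60 (adjusted p = 0.445), Cebpb by 0.18 (adjusted p = 0.906), Cebpd by 0.81 (adjusted p = 0.226) and Nfkbiz, which encodes an IkB protein needed for Lcn2 induction by IL-17 and IL-1, by 0.22 (adjusted p = 0.751). In BAT, 1 rose and 5 fell of 24 tested, against 31.9% of all genes called in either direction. Socs3 rose by 0.82 (adjusted p = 0.0250), although not without Ctrl replicate 2, 4 or 5 or Csn8AKO replicate 4 or 5. Cebpa fell from 452.6 to 229.9 CPM (by 0.95 ± 0.12 on the log2 scale, adjusted p = 6.59e-05), and so did Zc3h12a by 0.56 (adjusted p = 9.90e-04), Rel by 0.52 (adjusted p = 0.00766, but 0.117 when libraries were scaled by size alone and 0.339 with all 18 libraries in 1 fit), Relb by 0.56 (adjusted p = 0.0369) and Nfkbiz by 0.34 (adjusted p = 0.0460). The Relb call was lost without Ctrl replicate 1 or 2 or Csn8AKO replicate 2, 3, 4 or 5, and the Nfkbiz call without Ctrl replicate 1, 3, 4 or 5 or Csn8AKO replicate 1, 2 or 4. Stat3, Cebpb and Cebpd in BAT differed by 0.14, −0.33 and 0.39 (adjusted p = 0.258, 0.492 and 0.413).

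Of 18 genes whose proteins receive or work with the 8, 2 rose and 1 fell of 14 tested in sWAT, and 6 rose and 2 fell of 14 tested in BAT, where 31.9% of all genes were called. Slc22a17, a receptor for LCN2, fell in sWAT from 16.9 to 10.1 CPM (by 0.73 ± 0.15 on the log2 scale, adjusted p = 0.0263), a call lost without any Ctrl library and without Csn8AKO replicate 1 or 3, and in BAT its change was −0.12 (adjusted p = 0.654). Lrp2, another LCN2 receptor, and Fpr2, a receptor for SAA, had at most 12 and 30 counts in a library and were not tested. Mc4r, also on this list, was not tested in either tissue. Tlr2, which also binds SAA, rose by 1.03 in sWAT (adjusted p = 0.0138) and 0.75 in BAT (adjusted p = 0.0175), with the sWAT call lost without Ctrl replicate 2 or 3 or Csn8AKO replicate 3. Tlr4 rose in BAT by 0.63 (adjusted p = 0.00294). Cd163, the macrophage receptor for haptoglobin bound to haemoglobin, did not pass in sWAT (0.15, adjusted p = 0.816) or BAT (0.22, adjusted p = 0.237). Hmox1, which degrades the haem so taken up, rose in both tissues, from 35.5 to 91.9 CPM in sWAT (1.38 ± 0.16, adjusted p = 0.00222) and from 11.9 to 52.6 CPM in BAT (2.16 ± 0.25, adjusted p = 9.81e-05). In BAT, Slc40a1, the iron exporter that works with Cp, rose by 1.29 (adjusted p = 7.12e-04), and Tfrc, the transferrin receptor, fell from 201.4 to 66.3 CPM (by 1.57 on the log2 scale, adjusted p = 0.0193, or 0.0508 without Csn8AKO replicate 5).

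Markers of the cells that can make these proteins moved with the genotype too. The summed level of 10 macrophage markers was 926.9 to 1284 CPM in Ctrl and 1578 to 2805 CPM in Csn8AKO sWAT. In BAT it was 94.4 to 133.9 CPM and 343.7 to 493.8 CPM. Of the 10, 7 rose in sWAT and 8 in BAT. Of all genes tested, 2.30% rose in sWAT and 16.0% in BAT. The sum hides unlike changes of single markers. Trem2 rose by 2.63 ± 0.39 in sWAT and 4.45 ± 0.32 in BAT on the log2 scale. Lgals3 rose by 1.74 ± 0.19 and 4.43 ± 0.17. The change was under 0 for 1 marker, Cd14, in each tissue (−0.24 and −0.26). Within Csn8AKO sWAT, the macrophage sum in replicates 1 to 4 was 2805, 1578, 2645 and 1852 CPM, beside Lcn2 at 296.7, 295.4, 554.2 and 700.4 CPM. Ctrl sWAT had a higher macrophage sum than Csn8AKO BAT and a lower Lcn2 level, at 0.406 to 1.57 against 11.0 to 36.9 CPM. These groups differ in tissue, age and genotype, so nothing on the source of Lcn2 is read from that order. Neutrophils store LCN2 in their granules. The summed level of 12 neutrophil markers was 8.21 to 9.64 CPM in Ctrl and 14.0 to 28.6 CPM in Csn8AKO sWAT, and 2.50 to 4.17 CPM and 3.42 to 5.94 CPM in BAT. Much of it came from Csf3r, the single neutrophil marker that edgeR called in each tissue. In sWAT 4 of the markers were tested, 3 were at an unadjusted edgeR p under 0.05, and DESeq2 called S100a8 and Csf3r. S100a8 differed by 2.18 ± 0.70 on the log2 scale there (edgeR adjusted p = 0.105). In BAT 3 were tested, 3 were at an unadjusted edgeR p under 0.05, and DESeq2 called Csf3r on the higher side and Elane on the lower. Ly6g had 0 counts in all 8 sWAT libraries, which allows up to 3 counts in each. The part of these cells in the Lcn2 and Saa3 levels was not tested.

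**Figure D5:**
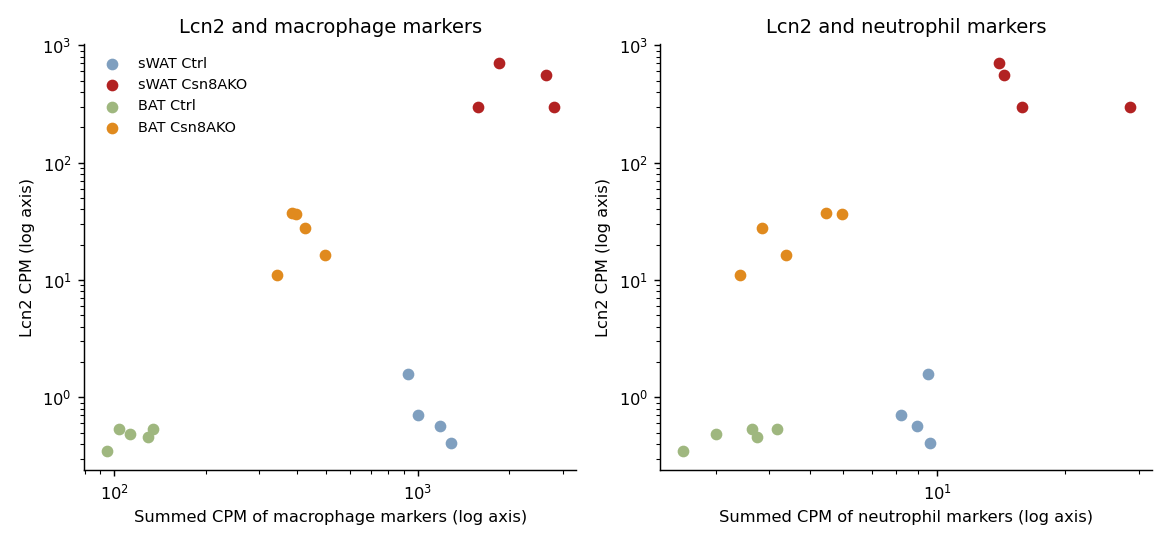
Lcn2 in CPM against the summed CPM of macrophage markers and of neutrophil markers (log axes), 1 point per library, coloured by group. Ctrl sWAT lies to the right of Csn8AKO BAT on the macrophage axis (926.9 to 1284 against 343.7 to 493.8 CPM) and below it in Lcn2. These groups differ in tissue, age and genotype.

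Hepatocyte markers were present in sWAT and nearly absent in BAT. Their sum was 25.1 to 177 CPM in Ctrl and 2.85 to 85.7 CPM in Csn8AKO sWAT, mostly albumin, and edgeR called 0 of 9 tested, with 0 at an unadjusted p under 0.05 and 0 by DESeq2. Ctrl replicate 3 had both the highest sum and the highest Itih4 in sWAT. In BAT the sum was 0.130 to 0.594 CPM and 0.338 to 1.18 CPM, and Apcs had 0 counts in all 18 libraries. The part of hepatocyte RNA in the levels of the 8 genes was not tested. Adipocyte markers summed to 8945 to 14120 CPM in Ctrl and 3900 to 9032 CPM in Csn8AKO sWAT, where 2 of 8 fell, and to 8082 to 9442 and 8523 to 10470 CPM in BAT, where 1 rose and 1 fell. Over all genes tested, 2.30% rose and 3.00% fell in sWAT, and 16.0% rose and 15.8% fell in BAT. Fibroblast and progenitor markers overlapped in sWAT (5595 to 7072 and 5892 to 11270 CPM), with 0 of 7 called by edgeR, 4 at an unadjusted p under 0.05 and 1 by DESeq2. In BAT they rose in 7 of 7 (735.7 to 1217 and 1706 to 3314 CPM), where Itih4, Cp, Orm1 and Hp were higher too. Within Csn8AKO BAT, the marker sum was lowest in replicate 2 (1706 CPM) and highest in replicate 5 (3314 CPM). Itih4 and Cp were also lowest in replicate 2. Hp and Orm1 were instead highest in replicate 2 (868.4 and 90.2 CPM) and lowest in replicate 5 (671.6 and 52.9 CPM). The part of these cells was not tested. Ucp1, the brown adipocyte uncoupling protein, was at 1637 to 5408 CPM in BAT and at most 6.81 CPM in sWAT. Epithelial and mesothelial markers summed to at most 8.32 and 14.7 CPM in any library, and endothelial markers to 316.3 to 524 CPM in sWAT and 729.9 to 1069 CPM in BAT.

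The genes whose levels followed Lcn2 most closely were found by the mean absolute difference between log2 levels, each centred on its own mean, over the 18 libraries and 12267 genes. The nearest was Atp6v0d2, a vacuolar ATPase subunit, at a mean difference of 1.35, followed by Mmp12, a macrophage metalloelastase, at 1.42, and the major urinary protein genes Mup15, Mup22 and Mup10 at 1.72, 1.74 and 1.75. Atp6v0d2 went from 1.37 to 23.2 CPM in sWAT and 0.133 to 8.46 CPM in BAT, and Mmp12 from 5.03 to 73.7 and 0.167 to 9.60 CPM. The Mup genes stayed low in BAT, where Mup15 went from 0 to 0.156 CPM and Mup22 from 0.0180 to 0.873 CPM, beside 0.475 to 25.6 CPM for Lcn2. In sWAT, Mup15 went from 0.170 to 17.1 CPM and Mup22 from 1.08 to 17.7 CPM. For Saa3 the nearest were Mup7, Mest, Mup3, Mup22 and Grin2b, at 0.838 to 1.00. Mup genes are close copies, and per the study's methods reads that match several copies alike were not counted. With a prior count of 0.5 in place of 2, Mup15 was nearest to Lcn2, ahead of Atp6v0d2. Of the 5 genes nearest Lcn2, 4 remained, and the macrophage marker Trem2 took the place of Mup10. Of the 5 nearest Saa3, 1 remained, Grin2b.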

How the data were processed

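Per the labels and the study's methods, RNA was extracted with TRIzol, depleted of ribosomal RNA and sequenced as paired reads. Reads were aligned with STAR to the mouse genome with Ensembl release 101. The authors counted uniquely aligned, unambiguous reads per gene with featureCounts and ran Salmon. The deposited counts were used as the unit of every test. The deposited CPM, FPKM and TPM columns were not used. The strand setting and whether fragments or single reads were counted are not given in the sources used here. Of counts from 1 to 20, 64.9% to 74.4% were even, so counts may hold both reads of a pair, and limits from counts cover counting error only. Gene names and positions came from GENCODE M21 (GRCm38), which held 55227 of the 55487 identifiers, and 1 listed symbol, Il36g, was not matched.

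The 8 genes and the other lists were chosen with earlier results of these data known. Genes were named by a rule: all 8 genes and all their relatives, up to 5 genes past the threshold in each direction, list and tissue, and some inducers, factors and receptors whatever their values. Hpx, C1ra, Serping1 and C1s1 were named to complete a count. Lists were described by counts and medians.

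Tests used edgeR 4.0.16 (R 4.3.3) with TMM factors, filterByExpr (minimum count 10, minimum total 15), its quasi-likelihood test with the robust option, and p-values adjusted by Benjamini-Hochberg over every gene tested, with 0.05 as the threshold. The fit was made within each tissue, across the Ctrl libraries, and over all 18 libraries for the interaction of genotype and tissue. A standard error is the log2 change divided by the square root of F. In counts simulated from these libraries with 200 changed genes, edgeR recovered 86.5% in sWAT, with 4.95% of its calls false, and 87% in BAT, with 3.87% false. Of the DESeq2 calls, 16% were false in sWAT and 21.7% in BAT, so a call by DESeq2 alone is read with caution. The simulation used the spread of each gene as estimated by edgeR, and a single mean per gene over all groups. It may therefore favour edgeR and cannot rank the tools. The changed genes all had the same size of change and were not low in counts, so the recovery does not cover smaller changes or low counts. DESeq2 1.42.0, other scalings and filters, and leaving out each library in turn were alternatives. Each replicate is a library from a separate mouse. Library pairs of a group were checked for duplicates and none was found.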

Additional observations from a re-analysis of the deposited data

Results flagged for a closer look

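In each of the 4 groups and for each of the 8 genes, 32 groups of libraries in all, the gap between the outermost library and its neighbour was set against the range of the group, and chance alone would mark about 1 in 20 such groups. In 7 of them 1 library stood apart. For Saa1 and Saa2 these were single libraries with a few counts where the others had 0: Ctrl replicate 2 for Saa1 (gap over range of 1), Ctrl replicate 3 for Saa2 (1) and Csn8AKO replicate 2 for Saa2 (1), all in sWAT. The others were Orm1 in sWAT Ctrl replicate 2 (0.866), Saa3 in BAT Csn8AKO replicate 3 (0.72, 12 counts), Hp in BAT Csn8AKO replicate 2 (0.717) and Cp in BAT Ctrl replicate 3 (0.715). Without its library, the Orm1 difference in sWAT was −0.40 in place of −0.73 on the log2 scale.

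Among the listed genes other than cell type markers, the genotype difference of 6 differed between the tissues by edgeR's interaction test, given as the BAT log2 change minus the sWAT log2 change. It was 2.97 for Trf (adjusted p = 4.93e-04), 2.94 for Lif (adjusted p = 0.00133), 2.69 for Orm2 (adjusted p = 0.00480), 2.55 for C4b (adjusted p = 5.67e-04), 1.28 for Lbp (adjusted p = 0.0315) and −2.62 for Il1rn, which rose more in sWAT (adjusted p = 0.00791). All but Lbp kept an adjusted p under 0.05 when each of the 18 libraries was left out, and Lbp lost it in 10 of the 18 cases, with an adjusted p of up to 0.0640 without BAT Ctrl replicate 2. Of all 22509 genes tested, 2.36% were called. Of the cell type markers, 6 were called as well, Retn (3.74, adjusted p = 1.90e-04), the macrophage markers Lgals3 (2.67, adjusted p = 1.88e-05), Lyz2 (1.33, adjusted p = 0.0196) and Cd68 (1.18, adjusted p = 0.0163), the fibroblast marker Dpt (1.42, adjusted p = 0.0421) and the epithelial marker Krt7 (−2.00, adjusted p = 0.0255). Among the 8 genes, every Csn8AKO library of sWAT was below the Ctrl mean and every Csn8AKO library of BAT above it for Itih4 (4.22) and Orm1 (2.01), a difference between tissues that was not tested because both contrasts were known. The sWAT groups overlapped for both genes, and for Orm1 the Ctrl mean of 60.3 CPM was raised by replicate 2, so that Csn8AKO replicate 1 at 57.9 CPM was above the other 3 Ctrl libraries.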

How the results depend on the processing

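Low counts limit Saa1 and Saa2 in both tissues, Saa3 in BAT and the Ctrl side of the Lcn2 ratios, and no result turned its direction past a threshold. In sWAT, edgeR called 434 genes higher and 566 lower, against 106 and 328 with library size alone, 912 and 1034 with DESeq2, 134 and 165 with the replicate block, 1044 and 1419 with all 18 libraries in the fit, and 993 higher without the 2 libraries high in B and T cell markers (a choice made after seeing the data), where the Lcn2 log2 difference was 9.84. Leaving out 1 library gave 147 to 804 higher and 179 to 673 lower calls, the fewest without Csn8AKO replicate 3 and the most without Csn8AKO replicate 2. The calls were also fewer by over 1.5 times without Ctrl replicate 2, 3 or 4 or Csn8AKO replicate 1. With library size alone, 2087 genes were lower in BAT, 3781 lower in the Ctrl comparison and 39 in the interaction, and the median log2 change of all genes moved by −0.07 in sWAT, 0.13 in BAT, 0.19 between the Ctrl groups and 0.22 in the interaction. The interaction counts were 362 and 170, against 737 and 355 with DESeq2, 208 and 89 with the replicate block, and 246 to 485 and 103 to 291 without 1 library. Lcn2 between the Ctrl groups was 0.27 to 1.06 without 1 library. Libraries with the same replicate number did not deviate together (correlations of −0.297 to 0.15 in sWAT and −0.094 to 0.102 in BAT), so the numbers do not pair them. With the block, BAT had 3353 higher and 3423 lower calls and the Ctrl comparison 5281 and 5059, each within 1.5 times.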
